A study of Rattus norvegicus with 6 samples.

Results

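The genes described here encode general splicing factors and heterogeneous nuclear ribonucleoproteins (hnRNPs) in rat pancreatic islet cells. They were chosen by name alone, as every gene whose symbol starts with Hnrnp, Sf3a, Sf3b, U2af or Snrp, or with Srsf or Prpf and a digit. The rule matched 68 of 28656 gene names, and 66 of them had an abundance of 1 or more in at least 3 libraries, among 13927 names that passed this filter. By role, the 66 genes comprised 18 hnRNPs, 11 SR proteins, 9 SF3A and SF3B subunits, 3 U2AF proteins, 12 Sm and snRNP proteins and 13 PRPF proteins. Of the other matches, Srsf8 was listed at 0 in every library, and Snrpd2l reached 1 only in control replicate 2.

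The study asked what follows when ci-Ins2, an intronic circular RNA made from the lariat of an Ins2 intron, is depleted from islet cells. Islets of 12-week-old male Wistar rats were dissociated with trypsin and the mixed islet cells were transfected by Lipofectamine RNAiMAX, either with an antisense gapmeR against ci-Ins2 or with a control gapmeR. RNA was taken 48 h later, with 3 libraries per group, and each animal gave both libraries of a replicate number. A gapmeR is a short antisense oligonucleotide that recruits RNase H to cut the RNA it pairs with.

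Both oligonucleotides are shown because the groups differ in which of them the cells received. They are written from 5′ to 3′. The capitals mark the bases complementary to GTAAGC, the start of the rat Ins2 intron that gives ci-Ins2, where a 5′ splice site lies.
rat ci-Ins2 gapmeR: GCTTACagacacatag
control gapmeR: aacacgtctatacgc
The ci-Ins2 gapmeR has 16 bases, of which 6 pair with the intron start, and the control gapmeR has 15 bases, with no such stretch. Pairing was examined only at the intron start, and the lower-case bases were not compared with the rest of ci-Ins2. The study designed the ci-Ins2 gapmeR against the junction of the circular RNA. Libraries were made from mRNA and quantified on annotated transcripts, so ci-Ins2 itself has no value in them and the depletion could not be checked here. By qPCR, the study reported lower ci-Ins2 in rat islet cells given this gapmeR, with the level of linear Ins2 not affected. In RNA labelled as newly made, it reported less Ins2 mRNA after the ci-Ins2 gapmeR.

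Splicing factors build the spliceosome in steps. U1 snRNP binds the 5′ splice site, the U2AF heterodimer binds the polypyrimidine tract and the 3′ splice site, and U2 snRNP, held by its SF3A and SF3B subcomplexes, settles on the branch point. The U4/U6.U5 tri-snRNP then joins, the PRP19 complex helps activation, and the intron leaves as a lariat, the form from which intronic circular RNAs arise. SR proteins and hnRNPs bind exons and introns and raise or lower the use of the splice sites nearby.

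The 6 libraries had the markers of islets: Ins1 and Ins2 together took 15.3% to 15.9% of all abundance in ci-Ins2 libraries and 15.5% to 15.9% in control libraries. These shares are before scaling between libraries, and the marker levels below are after it. The 5 beta cell markers summed to 177653 to 182927 in ci-Ins2 libraries and 183266 to 191203 in control libraries, which did not overlap. After scaling, all 5 were lower in every animal, beside 27.8% of all genes tested, and 3 of them without overlap, beside 13.9%. In limma 0 of them passed the test with or without the block, and their median log2 fold change was -0.06. Ins2 mRNA averaged 75456 ± 1032 in ci-Ins2 libraries and 78403 ± 536 in control libraries (SD, n = 3 each), with an adjusted p of 0.788 in limma. The log2 fold change was -0.06 for Ins2 and -0.05 for Ins1, and without scaling -0.01 and -0.002. Across all genes tested, 488 were lower and 141 higher in ci-Ins2 libraries at an adjusted p under 0.05, and 1428 and 729 with the animal as a block. With no scaling, 360 genes were lower and 177 higher. Of the 5 ductal markers tested, 3 (Krt19, Krt18 and Krt7) were higher, beside 1.01% of all genes. The summed ductal level was 945 to 1035 in ci-Ins2 libraries and 801 to 855 in control libraries. With the block, 3 of 5 macrophage markers (C1qa, C1qb and C1qc) and 3 of 5 fibroblast markers (Col1a1, Col1a2 and Col3a1) were lower, beside 10.3% of all genes. Of 3 endothelial markers tested, 1 was also lower with the block. Of 3 alpha cell markers, 1 was higher with the block, beside 5.23% of all genes. Of 3 delta and PP cell markers (median log2 fold change 0.26) and 3 acinar markers tested, 0 were called in either fit. Summed macrophage markers came to 15.8 to 35.8 in ci-Ins2 libraries and 30.0 to 51.5 in control libraries, and summed fibroblast markers to 203 to 571 in ci-Ins2 libraries and 297 to 697 in control libraries. No marker that was listed stood at 0 in any library. The part of these cells in the results below was not tested, and in RNA from mixed cells fewer cells of a type and less RNA per cell cannot be told apart.

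The splicing genes were expressed over a wide range. Levels below are on the TPM scale, which takes account of transcript length, after scaling between libraries. Their median level over the 6 libraries was 35.3, against 13.2 for all genes tested, and they ran from 1.87 (Prpf31) to 557 (Hnrnpa2b1). The 66 genes summed to 5217, 5211 and 5082 in ci-Ins2 libraries and to 5277, 5187 and 5235 in control libraries, or 0.521% of all abundance. The groups overlapped in this sum, and the 18 hnRNPs made up most of it, with 2928 ± 58.2 in ci-Ins2 libraries and 3012 ± 47.0 in control libraries (SD, n = 3 each). Subunits of the same particle could differ widely: in the Sm ring, where each protein is present once, Snrpg averaged 99.2 and Snrpd1 averaged 9.33 over the 6 libraries. Snrpd1 was named after its values were seen.

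**Figure D1:**
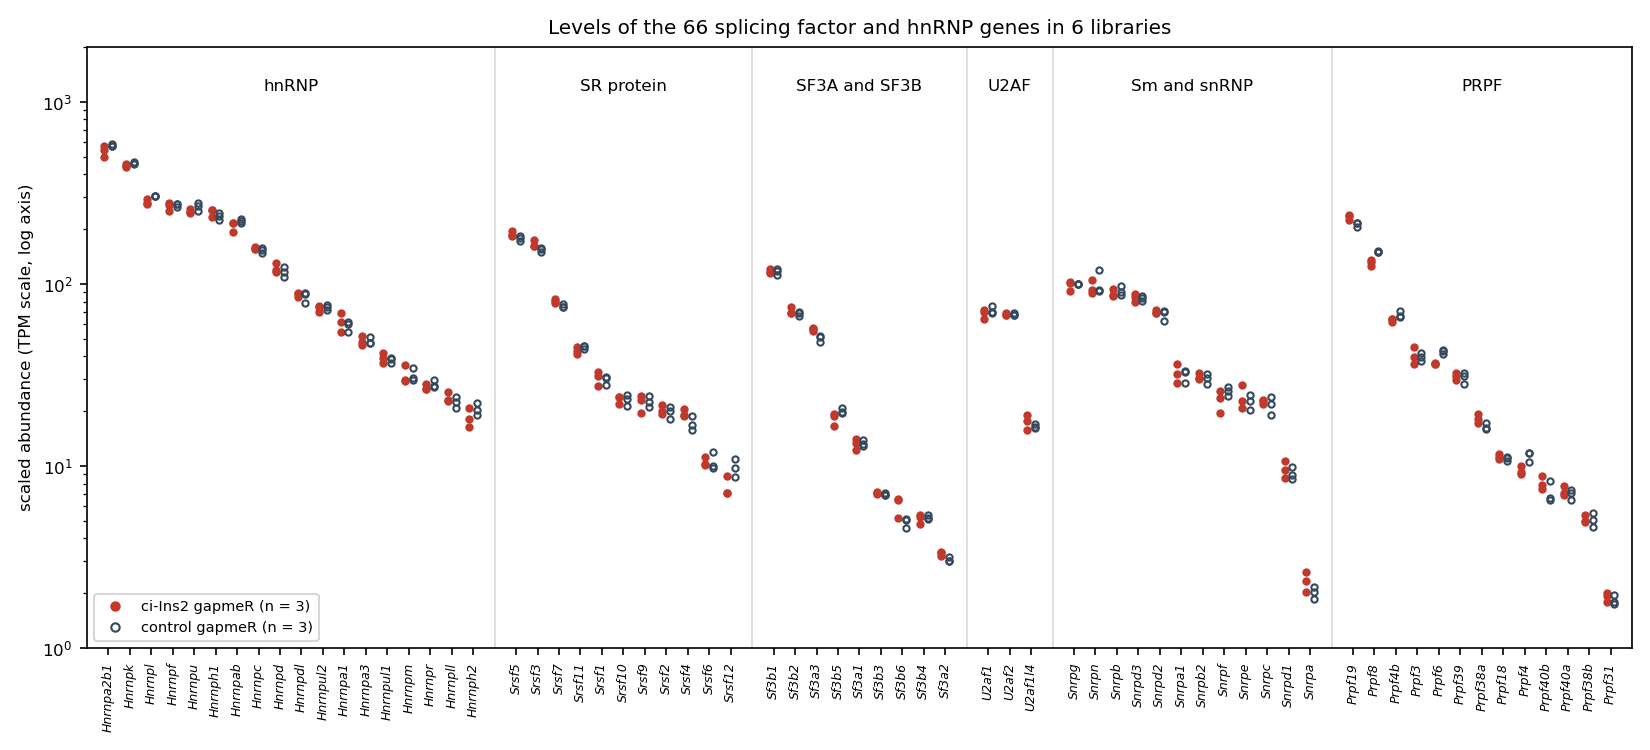
Scaled abundance (log axis, TPM scale) of each of the 66 genes, ordered by level within its role group. Each filled point is a ci-Ins2 library and each open point a control library (n = 3 each). Levels run from 1.87 for Prpf31 to 557 for Hnrnpa2b1, and for most genes the points of both groups lie together.

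In the comparison of ci-Ins2 with control libraries, 1 of the 66 genes fell at an adjusted p under 0.05 (Prpf6), beside 3.50% of all genes tested. None rose, beside 1.01% of all genes. The test was limma on log2(abundance + 1), with Benjamini-Hochberg adjustment over all 13927 genes, and fold changes are on that scale, so that those of low genes are too small. At an unadjusted p under 0.05, 5 genes were lower and 3 higher, beside 11.6% and 8.84% of all genes. Because each animal gave a library to both groups, the same fit was made with the animal as a block: 4 genes then fell (Prpf8, Srsf12, Prpf6 and Prpf4), beside 10.3% of all genes, and 0 rose, beside 5.23%. With the block, 6 genes were lower and 6 higher at an unadjusted p under 0.05, beside 18.4% and 15.5%. None of these shares of the 66 genes lay above that of all genes.

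Most of the genes differed little between the groups. The median log2 fold change was 0.02, with the middle 50% of genes between -0.05 and 0.06, while over all genes tested the median was 0.00 and the middle 50% lay between -0.11 and 0.10. Every one of the 66 values lay between -0.32 (Srsf12) and 0.26 (Sf3b6). Intervals counted here are those of the fit without the block. The 95% interval of the fold change lay inside ±0.5 for 64 of 66 genes (97.0%) and for 78.2% of all genes, and inside ±0.25 for 44 of 66 (66.7%) and for 29.8%. Among genes with a mean level of 5 or more, 84.3% and 36.7% of all genes met these limits, and 61 of 63 and 42 of 63 of the splicing genes. Groups did not overlap for 8 genes that were lower and 9 that were higher in ci-Ins2 libraries, beside 13.9% and 13.0% of all genes. All 3 animals had the same direction for 15 lower and 14 higher genes, 22.7% and 21.2% of the 66, beside 27.8% of all genes in either direction.

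**Figure D2:**
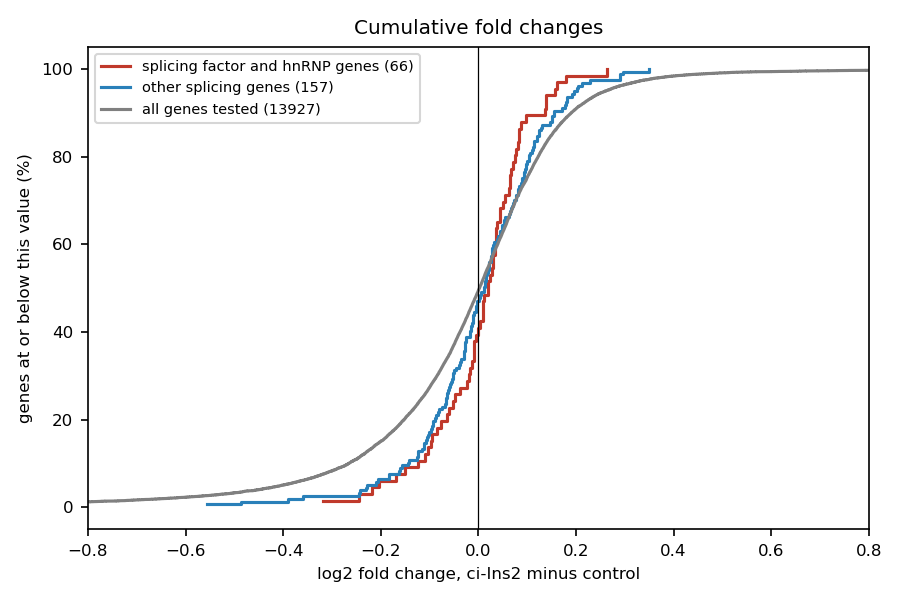
Share of genes (%) at or below each log2 fold change of ci-Ins2 minus control, for the 66 splicing factor and hnRNP genes, 157 other splicing genes and 13927 genes tested. The curve of the 66 genes is the steepest, with median 0.02 and all values between -0.32 and 0.26.

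**Figure D3:**
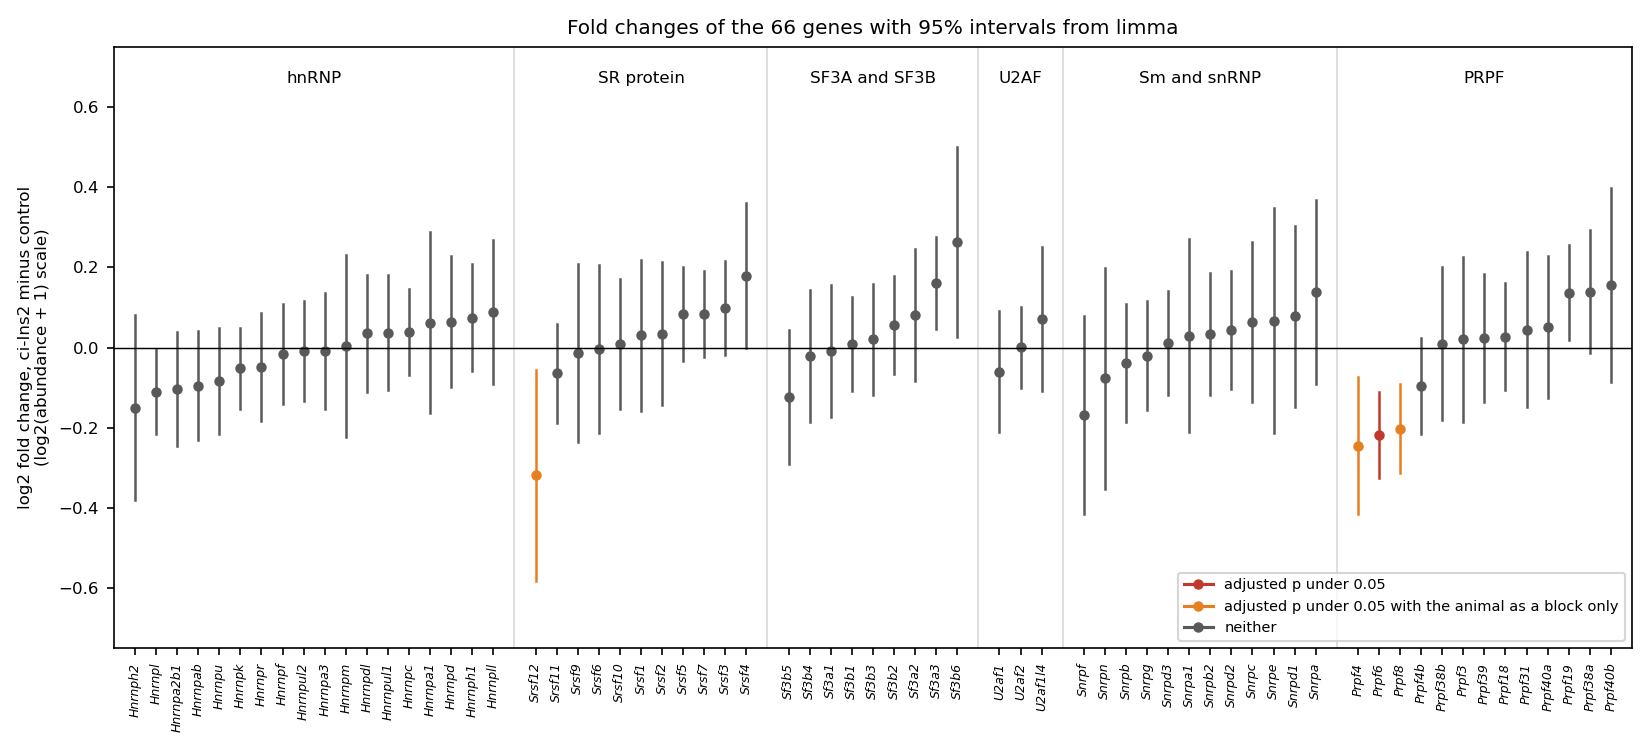
Log2 fold change of ci-Ins2 minus control for each gene by role group. Points are limma estimates and bars their 95% intervals in the fit without the block. The gene called without the block (Prpf6) and those called only with it (Prpf8, Prpf4 and Srsf12) lie below 0, and 26 of the 66 points lie below 0 in all.

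Without the block 1 of 13 PRPF genes fell, beside 3.50% of all genes tested, and with it 3 fell, beside 10.3%. These were 3 of the 4 genes that fell with the block, and all 3 belong to the U4/U6.U5 tri-snRNP. Prpf6 encodes the U5 protein that bridges U5 to U4/U6. It stood at 36.4, 36.6 and 36.3 in ci-Ins2 libraries and at 41.4, 43.6 and 42.7 in control libraries. The groups did not overlap, and every ci-Ins2 library was below the control library of its animal. The mean was 36.5 ± 0.169 in ci-Ins2 libraries and 42.6 ± 1.11 in control libraries (SD, n = 3 each). The log2 fold change was -0.22 (SE 0.045), with adjusted p = 0.047 in limma and 0.024 with the block. Without the block this call was lost when any of the 6 libraries was left out, with adjusted p between 0.103 and 0.164 and a log2 fold change between -0.24 and -0.20. It was also lost without scaling (-0.17, adjusted p = 0.103) and without the mean-variance trend (adjusted p = 0.076).

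Prpf8, the protein at the catalytic centre of the spliceosome, had 135, 125 and 132 in ci-Ins2 libraries and 152, 149 and 150 in control libraries. All ci-Ins2 values were below all control values. Its log2 fold change was -0.20 (SE 0.046), with adjusted p = 0.065 in limma and 0.023 with the block. Prpf4, a U4/U6 protein and partner of Prpf3, had 9.02, 10.0 and 9.21 in ci-Ins2 libraries and 10.6, 11.7 and 11.8 in control libraries. The groups did not overlap here either. The log2 fold change of Prpf4 was -0.24 (SE 0.072), with adjusted p = 0.12 in limma and 0.038 with the block.

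For the other PRPF proteins of this particle the estimates lay near 0. Prpf3 averaged 40.4 ± 4.43 in ci-Ins2 libraries and 39.7 ± 2.14 in control libraries, and Prpf31, which binds U4 RNA together with Snu13, averaged 1.92 ± 0.113 in ci-Ins2 libraries and 1.83 ± 0.114 in control libraries (SD, n = 3 each). Prpf3 and Prpf31 were named after their values were seen, and neither passed the test (adjusted p = 0.919 and 0.806 in limma). In a list of tri-snRNP proteins drawn up after these values were seen, 14 were tested. With the block 3 of them were lower (the genes above), beside 10.3% of all genes tested, and 1 was higher, beside 5.23%: Ppih, a U4/U6 cyclophilin outside the name rule. The median log2 fold change of the 14 was 0.03. Prpf19, the ubiquitin ligase of the PRP19 complex and the PRPF gene with the highest level, had 237, 223 and 240 in ci-Ins2 libraries and 205, 216 and 216 in control libraries. The groups did not overlap, but the log2 fold change of 0.14 (SE 0.050) did not pass in limma (adjusted p = 0.188, and 0.087 with the block).

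**Figure D4:**
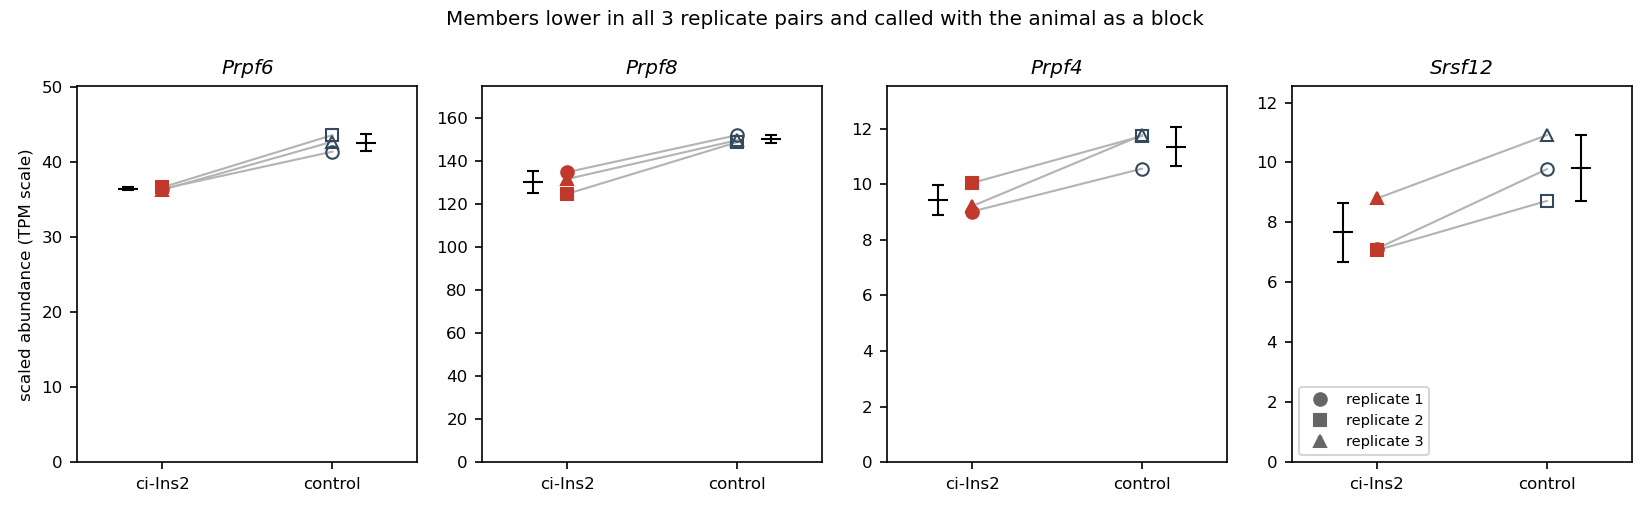
Scaled abundance of Prpf6, Prpf8, Prpf4 and Srsf12 in ci-Ins2 libraries (filled, left) and control libraries (open, right), with lines joining libraries of the same animal and bars giving mean ± SD (n = 3). All 12 lines run upward to the control library, and the groups overlap only for Srsf12.

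The promoters of the 4 genes that fell with the block are shown so that their sequences can be compared. Each is the 250 bases before the annotated start in RefSeq (GRCr8), on the plus strand. Capitals mark any match, on either strand, to the ETS core CCGGAAG, the GC box GGGCGG, the CCAAT box, the TATA box TATAAA, the cAMP response element core TGACG or the E box CACGTG. Overlapping or touching matches run together in capitals.
Prpf6 promoter, chr3:189084215-189084464: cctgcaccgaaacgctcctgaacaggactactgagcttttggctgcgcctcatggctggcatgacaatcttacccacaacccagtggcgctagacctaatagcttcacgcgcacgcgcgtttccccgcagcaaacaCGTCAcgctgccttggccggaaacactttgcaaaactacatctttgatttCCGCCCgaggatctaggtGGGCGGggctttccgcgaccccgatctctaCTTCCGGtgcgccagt
Prpf8 promoter, chr10:60829528-60829777: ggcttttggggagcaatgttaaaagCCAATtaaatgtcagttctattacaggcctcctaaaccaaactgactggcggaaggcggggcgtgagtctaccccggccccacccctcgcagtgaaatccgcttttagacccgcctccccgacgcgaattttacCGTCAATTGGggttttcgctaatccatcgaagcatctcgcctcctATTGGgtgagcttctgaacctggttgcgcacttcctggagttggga
Prpf4 promoter, chr5:80875261-80875510: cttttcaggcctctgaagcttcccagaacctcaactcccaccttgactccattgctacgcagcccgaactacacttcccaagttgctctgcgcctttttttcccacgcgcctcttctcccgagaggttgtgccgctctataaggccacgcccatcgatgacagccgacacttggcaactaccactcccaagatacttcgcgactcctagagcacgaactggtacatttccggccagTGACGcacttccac
Srsf12 promoter, chr5:52402761-52403010: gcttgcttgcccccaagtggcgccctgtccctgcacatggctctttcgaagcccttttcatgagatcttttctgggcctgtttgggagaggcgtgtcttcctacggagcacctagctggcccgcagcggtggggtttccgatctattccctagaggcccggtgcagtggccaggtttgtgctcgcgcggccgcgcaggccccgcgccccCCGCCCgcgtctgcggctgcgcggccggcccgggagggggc
TGACG was found in the 3 PRPF promoters and not in that of Srsf12. In Prpf6 and Prpf8 it lies on the minus strand and is printed as CGTCA, and in Prpf4 it lies on the plus strand. The leftmost printed base of the match is 114, 91 and 14 bases before the start in Prpf6, Prpf8 and Prpf4. None of the 4 windows holds TATAAA. Over the whole group, 62 of 66 symbols matched the promoter table, with 66 windows, and the median number of CpG in their 250 bases was 18.5, against 16 for the genes tested and 5 for the whole table. TGACG was in 48.5% of these windows, against 28.2% of windows of genes tested and 18.2% of all windows. CCGGAAG was in 28.8%, against 15.1% and 7.27%, and CCAAT in 51.5%, against 35.0% and 34.0%. GGGCGG was in 54.5%, against 58.5% and 30.5%. TATAAA was in 10.6%, against 6.48% and 12.9%, and CACGTG in 10.6%, against 7.83% and 5.59%. These are matches of letters and not sites shown to be bound.

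SR proteins bind exonic enhancers through RNA recognition motifs and recruit the spliceosome through arginine-serine domains. Of the 11 SR genes, 0 fell and 0 rose without the block, beside 3.50% and 1.01% of all genes tested. With the block 1 fell, beside 10.3% of all genes, and 0 rose, beside 5.23%. Srsf12, described in human cells as a repressor of splicing, had 7.13, 7.07 and 8.80 in ci-Ins2 libraries and 9.78, 8.72 and 10.9 in control libraries. The groups overlapped, because replicate 3 was highest in both, but each ci-Ins2 library was below the control library of its animal. The log2 fold change was -0.32 (SE 0.11, and 0.057 with the block), with adjusted p = 0.171 in limma and 0.023 with the block. The 2 most abundant members lay the other way without passing: Srsf5 averaged 188 ± 6.07 in ci-Ins2 libraries and 178 ± 6.42 in control libraries, and Srsf3 averaged 165 ± 6.85 in ci-Ins2 libraries and 154 ± 4.18 in control libraries (SD, n = 3 each; adjusted p = 0.395 and 0.318 in limma). Srsf4, named after its values were seen, had a log2 fold change of 0.18 (SE 0.076, adjusted p = 0.249 in limma). In total, 4 of 11 SR genes were higher in ci-Ins2 libraries without overlap, beside 13.0% of all genes tested, and these 4 were also the SR genes higher in every animal, beside 27.8% of all genes. The 11 genes summed to 617, 604 and 614 in ci-Ins2 libraries and to 597, 573 and 587 in control libraries, which did not overlap. Srsf5 and Srsf3, both among those 4 genes, made up most of this sum. The sum of the 9 SF3A and SF3B genes did not overlap either, with 296 to 300 in ci-Ins2 libraries and 280 to 295 in control libraries.

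No SF3A, SF3B or U2AF gene passed either fit. Sf3b1, the large SF3B subunit that clamps the branch point helix, had 115, 116 and 121 in ci-Ins2 libraries and 117, 112 and 121 in control libraries. Its log2 fold change was 0.01 (95% interval -0.11 to 0.13). Sf3b2, which contacts the RNA near the branch site, averaged 71.3 ± 3.19 in ci-Ins2 libraries and 68.5 ± 1.84 in control libraries (SD, n = 3 each). Sf3b6, the subunit that lies close to the branch point adenosine, was singled out after its values were seen and had the highest log2 fold change of the 66, 0.26 (SE 0.10, adjusted p = 0.203 in limma). Its values were 6.46, 6.61 and 5.20 in ci-Ins2 libraries and 5.09, 4.55 and 5.03 in control libraries. The groups did not overlap, although ci-Ins2 replicate 3 lay just above the control values. Sf3a3, also named after its values were seen, had 56.9, 56.3 and 55.3 in ci-Ins2 libraries and 51.5, 47.9 and 51.1 in control libraries. The groups did not overlap, and the log2 fold change was 0.16 (SE 0.048, adjusted p = 0.126 in limma and 0.057 with the block).

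The U2AF subunits that read the 3′ splice site differed little between groups. U2af2, which binds the polypyrimidine tract, averaged 68.1 ± 1.14 in ci-Ins2 libraries and 68.1 ± 1.22 in control libraries, and its log2 fold change of 0.00 had a 95% interval of -0.10 to 0.10. U2af1, which binds the AG at the 3′ splice site, averaged 68.9 ± 4.11 in ci-Ins2 libraries and 71.8 ± 3.69 in control libraries (SD, n = 3 each), with a log2 fold change of -0.06 (95% interval -0.21 to 0.09).

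The 12 Sm and snRNP proteins gave 0 calls in either fit, and none of them had an unadjusted p under 0.05 in limma, with or without the block. The 7 proteins of the Sm ring, on which the snRNPs are built, summed to 401, 416 and 377 in ci-Ins2 libraries and to 399, 413 and 388 in control libraries. Replicate 2 was highest and replicate 3 lowest in both groups. Snrpg averaged 98.6 ± 6.35 in ci-Ins2 libraries and 99.8 ± 0.491 in control libraries (SD, n = 3 each), with a log2 fold change of -0.02 that was 0.02 without scaling. Snrpn, an imprinted relative of Snrpb found mostly in the brain, had 89.3, 105 and 92.6 in ci-Ins2 libraries and 92.7, 120 and 92 in control libraries. The same animal, replicate 2, was highest in both groups, and the log2 fold change was -0.08 (95% interval -0.35 to 0.20, and -0.20 to 0.045 with the block). Snrpn and Snrpb have much sequence in common, so the division of reads between them is uncertain, as it is for Hnrnph1 and Hnrnph2. Snrpa, the U1 protein A, was the lowest of this group, with 2.32 ± 0.286 in ci-Ins2 libraries and 2.01 ± 0.157 in control libraries (SD, n = 3 each; named after its values were seen).

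The hnRNPs, which coat nascent transcripts and often repress nearby splice sites, gave 0 calls in either fit, and their median log2 fold change was -0.01. Their estimates were the most alike of the larger role groups, between -0.15 and 0.09. Hnrnpa2b1, the most abundant of the 66 genes, had 547, 569 and 497 in ci-Ins2 libraries and 585, 572 and 574 in control libraries. All ci-Ins2 values were below all control values, with ci-Ins2 replicate 3 the lowest, but the log2 fold change of -0.10 (SE 0.060) did not pass in limma (adjusted p = 0.385). Hnrnpk, a poly(C)-binding protein, had 440, 443 and 454 in ci-Ins2 libraries and 470, 453 and 464 in control libraries, which overlapped only through control replicate 2. Its log2 fold change was -0.05 (95% interval -0.15 to 0.05). Hnrnpl, a CA-repeat binding protein named after its values were seen, had 274, 292 and 277 in ci-Ins2 libraries and 302, 303 and 305 in control libraries. The groups did not overlap, and the log2 fold change of -0.11 (SE 0.045) had an unadjusted p of 0.044 and an adjusted p of 0.229 in limma. In all, 6 of 18 hnRNP genes (33.3%) were lower in every animal and 1 (5.56%) was higher, beside 27.8% of all genes tested in either direction. Tardbp, the gene of the hnRNP-like protein TDP-43 that the study also examined, averaged 15.2 ± 1.28 in ci-Ins2 libraries and 15.5 ± 0.942 in control libraries (SD, n = 3 each). Its log2 fold change of -0.03 was 0.01 without scaling (adjusted p = 0.872 in limma).

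Outside the name rule, 173 further splicing genes were listed and 157 were tested, and their median log2 fold change was 0.01. Of the 157 tested, 4 fell and 0 rose in limma, beside 3.50% and 1.01% of all genes tested. At an unadjusted p under 0.05, 16 were lower and 14 higher, beside 11.6% and 8.84% of all genes. With the block 8 fell and 5 rose, beside 10.3% and 5.23%. Khdrbs3, a STAR family regulator of alternative exons, averaged 21.8 ± 1.03 in ci-Ins2 libraries and 32.6 ± 1.25 in control libraries, a log2 fold change of -0.56 (SE 0.058, adjusted p = 0.0041 in limma). Rbm17, which binds SF3B1 through a U2AF homology motif, averaged 23.2 ± 0.891 in ci-Ins2 libraries and 32.9 ± 0.549 in control libraries (log2 fold change -0.49, SE 0.051, adjusted p = 0.0043 in limma). Both were lower in 3 of 3 animals, and both fell further than any of the 66 genes. Mbnl1, a muscleblind regulator of alternative exons, averaged 25.7 ± 1.05 in ci-Ins2 libraries and 33.9 ± 0.914 in control libraries (log2 fold change -0.39, adjusted p = 0.011 in limma, and 0.057 without control replicate 3). Snrnp70, the U1 protein that meets SR proteins at the 5′ splice site, averaged 102 ± 3.19 in ci-Ins2 libraries and 121 ± 2.42 in control libraries (SD, n = 3 each for these genes). Its log2 fold change was -0.24, with adjusted p = 0.033 in limma, and leaving out any library gave 0.059 to 0.117. Without scaling the adjusted p of Snrnp70 was 0.072, and without the trend 0.066.

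The counts by list stand beside 3.50% of all genes tested that fell and 1.01% that rose. With the block these shares of all genes were 10.3% and 5.23%. By list, 2 of 39 further snRNP and complex proteins fell and 0 rose, and with the block 2 fell and 1 rose. Of 32 factors of the catalytic stage, 0 passed, and with the block 3 rose (Plrg1, Ctnnbl1 and Snw1), beside 5.23% of all genes tested, and 0 fell. At an unadjusted p under 0.05, 0 of these 32 were lower and 6 higher without the block, beside 11.6% and 8.84% of all genes. Of 74 regulators of alternative splicing, 2 fell and 0 rose, and with the block 6 fell and 1 rose. Of 12 kinases and import factors of SR proteins, 0 passed in either fit.

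Transcripts of the 66 genes were also tested one by one. Of 94 annotated transcripts 93 were tested, and 45 genes had a single transcript, 14 had 2 and 7 had 3. The single transcript of Prpf6, ENSRNOT00000083423, fell (log2 fold change -0.21, adjusted p = 0.047 in limma), beside 4.23% of all transcripts tested, and 0 rose, beside 1.07%. With the block 5 fell (those of Prpf6, Prpf4 and Srsf12 and both of Prpf8), beside 10.8%, and 1 rose (ENSRNOT00000010373 of Sf3a3), beside 5.99%. In the 21 genes with 2 or more transcripts, the main transcript held a median 53.9% of its gene in ci-Ins2 libraries and 54.0% in control libraries. The share differed by at most 1.95 percentage points (Prpf18), and groups did not overlap for 3 of 21 genes (Hnrnpc, Prpf3 and Hnrnpm), beside 12.1% of all genes with 2 or more transcripts. Both transcripts of Prpf8 were lower by a like amount, and its main transcript kept 51.9% of the gene in ci-Ins2 libraries and 51.7% in control libraries. RSEM estimates share reads between transcripts, so transcripts of the same gene are not independent measurements. Steady shares are therefore a description and no test of a change between transcripts.

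The mouse islet annotation of circular RNAs, made by the authors from another study's libraries, also held products of these genes. Of 15925 circular RNAs, 51 came from 20 genes that match the name rule, 49 of them in the exonic class and 2 in the intronic class. Of the 66 rat genes 19 (28.8%) shared a symbol with such a mouse host gene, against 25.8% of all names tested. The most abundant, from Hnrnpll, had a mean of 453 normalised junction reads as the authors give it. Prpf6 and Hnrnpr each gave 6 circular RNAs, and the most abundant from Prpf6 had a mean of 37.6. The median over the 51 was 2.08, against 2.99 over the whole annotation. These means come from mice and carry no comparison with the rat libraries.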

How the data were processed

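Single-end reads of 6 stranded mRNA libraries were aligned by the authors to rat transcripts (rn6; STAR 2.5.3a), and abundances were estimated by RSEM 1.3.0. The deposited signal is a relative transcript abundance with the same sum in every library, 10 times that of TPM, and the sources used here do not name its unit. It holds no counts, so the depth and the precision it gives are unknown and no count test was run. Values were divided by 10 and summed per gene name, and names at 1 or more in 3 or more libraries were kept. Libraries were divided by median-of-ratios size factors (0.961 to 1.034), and log2(value + 1) was fitted with limma 3.58.1 (R 4.3.3), using a trend of variance on mean; p-values were adjusted over all names by the Benjamini-Hochberg method. A gene was called at an adjusted p under 0.05. The script was tested on simulated data.

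The study's methods name no block, so the fit has none. Both libraries of a number stem from a single animal according to the study's reporting form, and their deviations from the group means correlated across genes (0.46, 0.49 and 0.42, against -0.27 to -0.16 for different numbers). Deviations within a group cancel out for each gene, so the negative values follow from the positive ones and are no separate evidence. The fit was therefore repeated with the animal as a block, and its value is given where it changes a call. Alternatives were other pseudocounts (0.1 and 5), a filter at 5 or none, no scaling, no trend, the highest transcript per gene, and each library left out. Each of these was run without the block, so calls made only with the block were not rerun under them.

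Named genes were those called in the fit, up to 12 called only with the block, the 2 most abundant of each role group, called genes of the other splicing lists (at most 4 a list), called transcripts, Ins2 and Tardbp. Genes behind a count or an extreme value, and relatives in sequence, are named where they arise. The rest are marked as chosen after their values were seen. The genes and lists were chosen with earlier results of these data known. Deposited sheets of the authors' own fold changes, p-values and pathways were not used. In the annotation of mouse circular RNAs only the authors' mean signal of normalised junction reads was used, and 6 columns of single mouse samples were left out. GapmeR sequences are per the labels, and promoters are from RefSeq (GRCr8). Python 3.11.15, pandas 2.3.3 and matplotlib 3.10.9 were used for tables and figures.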

Additional observations from a re-analysis of the deposited data

How the results depend on the processing

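With the animal as a block, called genes were 1428 lower and 729 higher in place of 488 and 141. Among the splicing factor and hnRNP genes 4 were then lower in place of 1, among their transcripts 5 were lower and 1 higher in place of 1 and 0, and among the other splicing genes 8 were lower and 5 higher in place of 4 and 0. In fits without the block, 0 splicing factor and hnRNP genes and 0 of their transcripts were lower without scaling, and likewise without the trend. Without scaling the median log2 fold change of all genes moved to 0.04 and that of the 66 genes to 0.062. At an adjusted p under 0.01, 0 of the 66 genes were lower, and at one under 0.1, 2 were lower. No filter gave 89 genes higher. Leaving out a library gave 205 to 326 genes lower and 37 to 75 higher, 0 of the 66 genes and 0 of their transcripts lower or higher, 2 to 3 other splicing genes lower and 0 to 1 higher, and a median of the 66 genes between 0.01 and 0.03. No setting called any of the 66 genes higher. Uncalled estimates close to 0 changed sign. Leaving out a library gave -0.021 to 0.035 for Sf3b1, -0.015 to 0.014 for U2af2, -0.052 to 0.032 for Snrpg, -0.15 to 0.046 for Snrpn, -0.090 to 0.024 for Tardbp and -0.060 to 0.091 for Prpf3. Without scaling Snrpg was at 0.024 and Tardbp at 0.012. The causes of these changes were not tested, beyond the fewer samples of a fit that leaves out a library. With 3 libraries a group and no counts in the files, precision is stated only by the standard errors and 95% intervals of the fold changes. Except where the block is named, these leave out the pairing by animal.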
